A study of Homo sapiens with 6 samples.

Results

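The stress sensors and protein folding factors of the endoplasmic reticulum (ER) were examined in TAK1 knockdown RD cells. RD is a human line established from an embryonal rhabdomyosarcoma (ERMS), a tumor of cells related to skeletal muscle. Poly(A)-enriched RNA was sequenced from 3 samples of RD cells transduced with lentivirus expressing Scrambled shRNA, the control, and from 3 samples transduced with lentivirus expressing TAK1 shRNA. Both groups therefore carry an integrated lentiviral vector and differ in the hairpin. The knockdown cultures carried a single TAK1 hairpin, so that an effect of TAK1 loss and an effect of this hairpin cannot be told apart. The time between transduction and RNA extraction is not given in the sources used here. The 10 genes were chosen by symbol, with earlier results of these data known. They are sensors, a transcription factor, degradation factors and folding factors. Each matched a single row among the 58735 rows of the count table. All 10 passed the filter on low counts, as did 15935 rows in all, and the lowest count of any of them in any library was 405, for ERN1.

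The ER folds secreted and membrane proteins, and 3 sensors in its membrane respond when unfolded proteins accumulate, in the unfolded protein response. IRE1α (ERN1) is a kinase and endoribonuclease that removes a short intron from XBP1 mRNA, PERK (EIF2AK3) is a kinase that phosphorylates the translation factor eIF2α, and ATF6 is a membrane-bound transcription factor released by proteolysis. The active forms of XBP1 and ATF6 are known to raise the expression of chaperones and of the ER-associated degradation (ERAD) machinery, and the response is known to be engaged when myoblasts differentiate. These steps act on proteins and on splicing, and the counts measured here report the amount of mRNA of each gene alone.

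The XBP1 intron is shown because a change in it would not appear in gene counts. It was located by the letters CNGCAG, the known cleavage motif, which occur at both of its ends, and IRE1α cuts after the G at the third position of each. It reads, on the transcribed strand from 5′ to 3′, with the 3 bases next to each cleavage point in capitals:
XBP1 intron: CAGcactcagactacgtgcacctCTG
These 26 bases lie at chr22:28796127-28796152 on the minus strand of GRCh38, in coding sequence of exon 4 of 5 in transcript ENST00000216037.10. Of the 6 XBP1 transcripts in GENCODE 44, 4 hold the sequence, and the canonical transcript ENST00000344347.6 lacks it. A count per gene adds spliced and unspliced XBP1 together.

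Promoters of the 10 genes were then read for the sequences known to serve the unfolded protein response. The ER stress response element (ERSE, CCAAT and CCACG with 9 bases of any kind between them) and the related ERSE-II (ATTGG, any base and CCACG), both on either strand, were sought in the window from 250 bases before to 50 bases after each RefSeq start, build GRCh38.p14, and each of the 10 genes had at least 1 such window. ERSE was present in 0.0769% of the 35116 windows in the table and in windows of 3 of the 10 genes. ERSE-II was present in 0.0541% of windows and in those of 2 of the 10 genes. The shares count windows and the 10 are counted as genes. A gene with several windows has more chances of a match, so the shares and the gene counts are not like for like. The matches are printed with 3 flanking bases on each side and the fixed letters of the element in capitals:
CANX, ERSE: cggCCAATcttcacactCCACGaag
CALR, ERSE on the reverse strand: acgCGTGGtcgaccatcATTGGtcg
XBP1, ERSE: tggCCAATcgcggagggCCACGacc
HERPUD1, ERSE-II: ccgATTGGgCCACGttg
SDF2L1, ERSE-II on the reverse strand: aagCGTGGaCCAATcaa
The windows lie at chr5:179698775-179698799 for CANX, chr19:12938381-12938405 for CALR, chr22:28800600-28800624 for XBP1, chr16:56932022-56932038 for HERPUD1 and chr22:21642111-21642127 for SDF2L1. The gene is on the plus strand in each case but XBP1. The HERPUD1 window also held the letters TTGCATCA, an element known to bind ATF4, which were present in 0.866% of windows, and TGACGTGG, an XBP1 and ATF6 element, was in none of the windows of the 10 genes and in 0.729% of all. The latter shares the letters CCACG, read on the other strand, with both ERSE forms. These matches are letters in a window and say nothing of binding in RD cells.

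In TAK1 knockdown cells 4 of the 10 genes fell and 1 rose. SEL1L fell by 30.4%, SDF2L1 fell by 23.9%, CANX fell by 18.8%, PDIA4 fell by 17.4% and EIF2AK3 rose by 38.9%, while ATF6 and CALR passed on the adjusted p but not on the size of the change, and XBP1, ERN1 and HERPUD1 passed on neither. A gene is called here when the adjusted p is under 0.05 and the absolute log2 fold change is at least 0.25, where p comes from the quasi-likelihood test of edgeR, adjusted by Benjamini-Hochberg over the 15935 genes tested. Of all genes tested, 11.3% were called down and 11.8% were called up by the same rule, 23.1% in all, against 4 down and 1 up of the 10 genes. The median log2 fold change was -0.18 over the 10 genes and 0.018 over all genes tested, and 9 of the 10 had a log2 fold change under 0, against 7565 of the 15935 genes tested. XBP1 and HERPUD1 are among the 9 with values near 0, and both were above 0 when scaled by library size alone. At a fold threshold of 0.5 only SEL1L remained called, so the changes are modest in size. Levels are given in CPM, the usual normalized read count, in which each count is divided by the size of its library as scaled by edgeR's trimmed mean of M-values. In such bulk RNA, fewer cells of a type and less RNA per cell cannot be told apart.

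**Figure D1:**
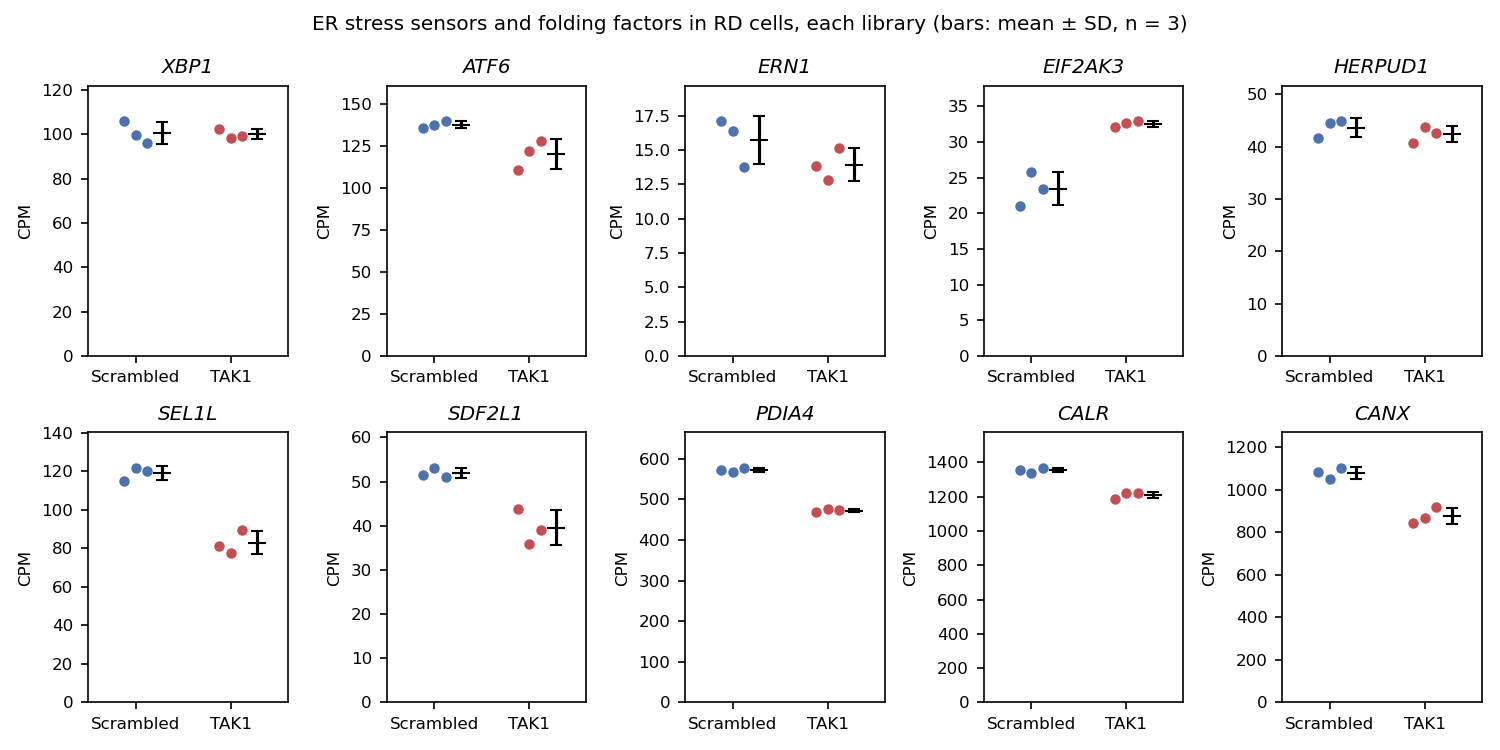
Expression of the 10 genes in CPM (vertical axes from 0) in each of the 3 Scrambled shRNA and 3 TAK1 shRNA libraries, with the mean ± SD (n = 3) beside the points. EIF2AK3 was higher and SEL1L, SDF2L1, PDIA4, CALR, CANX and ATF6 were lower in every knockdown library than in every control library, and the groups overlapped for XBP1, ERN1 and HERPUD1.

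The libraries held 28839898 to 34469323 counts and no library stood apart along the first principal component, which separated the groups. TAK1 is encoded by MAP3K7, which was at 76.5 to 77.9 CPM in control and at 29.9 to 33.6 CPM in knockdown libraries, a log2 fold change of -1.30. The labels do not state that the samples came from separate cultures, so the p-values measure the spread between these samples, which may be technical. The groups of 3 do not allow an exact permutation p under 0.1, and 43.9% of all genes tested had groups that did not overlap, against 7 of the 10 genes. Scaled by library size alone, 62.9% of the called genes were called up, against 51.0% as reported here. Of the myogenic markers MYOD1, MYOG, DES, MYF5, PAX7, CHRNA1 and CDH15, 2 were called up and 1 down. MYOD1 and MYOG were called up, with log2 fold changes of 0.37 and 0.27. CHRNA1 was called down at -0.40, from 908 to 929 CPM in control to 698 to 702 CPM in knockdown libraries. DES, PAX7 and CDH15 had log2 fold changes above 0 and were not called, and MYF5 was at 0. The markers summed to 2012 to 2035 CPM in control and 1938 to 2051 CPM in knockdown libraries. Opposite changes offset each other in this sum. Of 5 epithelial markers, 1 was called down, KRT18, and they summed to 56.4 to 62.8 CPM in control and 27.7 to 31.1 CPM in knockdown libraries, while CDH1 and KRT19 were at 0 and EPCAM was at most 0.42 CPM. Fewer cells with KRT18 and less KRT18 mRNA per cell cannot be told apart here, and any bearing on the other results was not tested. The 5 leukocyte markers summed to at most 0.453 CPM and the 4 endothelial markers to at most 0.162 CPM.

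Among the sensors, EIF2AK3 was the gene that rose. PERK, its product, slows translation under ER stress through eIF2α. EIF2AK3 (ENSG00000172071.15, chromosome 2, 88556741 to 88691518, minus strand) was at 21.1, 25.7 and 23.4 CPM in replicates 1, 2 and 3 of the control and at 32.1, 32.6 and 32.9 CPM in those of the knockdown. All 3 knockdown libraries lay above all 3 controls, and they differed among themselves by less than the controls did. The means were 23.4 ± 2.33 and 32.5 ± 0.420 CPM (SD, n = 3), for a log2 fold change of 0.47 (standard error, SE, 0.077, adjusted p = 2.66e-05). It ranked 2718 among the 15935 genes by the size of its log2 fold change. A transcript annotated on the opposite strand overlaps its exons, and whether the counting used strand is not given in the sources used here.

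ATF6 (ENSG00000118217.7, chromosome 1, 161766298 to 161977574, plus strand), the sensor that becomes a transcription factor, was lower by an amount under the fold threshold. It was at 135, 137 and 140 CPM in the control libraries and at 110, 122 and 128 CPM in the knockdown libraries. The groups did not overlap, and the knockdown libraries were more widely spread than the controls. Its log2 fold change was -0.19 (SE 0.053, adjusted p = 0.00591). Without replicate 3 of the knockdown it reached -0.25 and was called, and over the 16 alternatives it ran from -0.25 to -0.14.

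ERN1 (ENSG00000178607.17, chromosome 17, 64039080 to 64130819, minus strand), which encodes IRE1α, had the lowest expression of the 10 genes. Control libraries gave 17.1, 16.4 and 13.8 CPM and knockdown libraries 13.8, 12.8 and 15.1 CPM. The groups overlapped, with replicate 3 of the control among the knockdown values. The log2 fold change was -0.18 with a 95% confidence interval from -0.38 to 0.029 (adjusted p = 0.188), so a fall of the size seen in PDIA4 lies within the interval. In the same libraries the number of EIF2AK3 counts per ATF6 count was 0.156, 0.187 and 0.168 in the control and 0.291, 0.267 and 0.257 in the knockdown, a ratio free of library scaling that was chosen after the values were seen. Each knockdown library gave a higher ratio than each control. Exons of ERN1 overlap those of 2 genes annotated on the opposite strand.

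XBP1 (ENSG00000100219.17, chromosome 22, 28794555 to 28800597, minus strand), the transcription factor made active by IRE1α, was close in both groups. Its expression was 106, 99.95 and 96.3 CPM in the control libraries and 103, 98.3 and 99.5 CPM in the knockdown libraries. The knockdown values lay within the range of the controls. The log2 fold change was -0.0090 (adjusted p = 0.917), with a 95% confidence interval from -0.11 to 0.097 that leaves out changes as large as 0.25 in either direction. Its sign turned under 2 other scalings and 2 fits without a library, so no direction can be given.

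Of the ERAD members, SEL1L fell and HERPUD1 was not called, and the difference between their changes was not tested. SEL1L (ENSG00000071537.14, chromosome 14, 81471547 to 81533853, minus strand) encodes the adaptor that holds the ubiquitin ligase HRD1 in its complex. It was at 115, 122 and 120 CPM in the control libraries and at 81.4, 77.7 and 89.4 CPM in the knockdown libraries. Every knockdown library was below every control, by more than either group's spread. The means were 119 ± 3.64 and 82.8 ± 5.96 CPM (SD, n = 3), for a log2 fold change of -0.52 (SE 0.055, adjusted p = 4.84e-08), the largest fall among the 10 genes. HERPUD1 (ENSG00000051108.15, chromosome 16, 56932142 to 56944864, plus strand) encodes HERP, a membrane protein of the same complex whose gene is a common marker of ER stress. HERPUD1 gave 41.6, 44.5 and 44.9 CPM in control and 40.8, 43.8 and 42.6 CPM in knockdown libraries. Its groups overlapped, and the log2 fold change of -0.042 had a 95% confidence interval from -0.17 to 0.088 (adjusted p = 0.664). Scaled by library size alone it was 0.0064, so that its direction is not set.

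**Figure D2:**
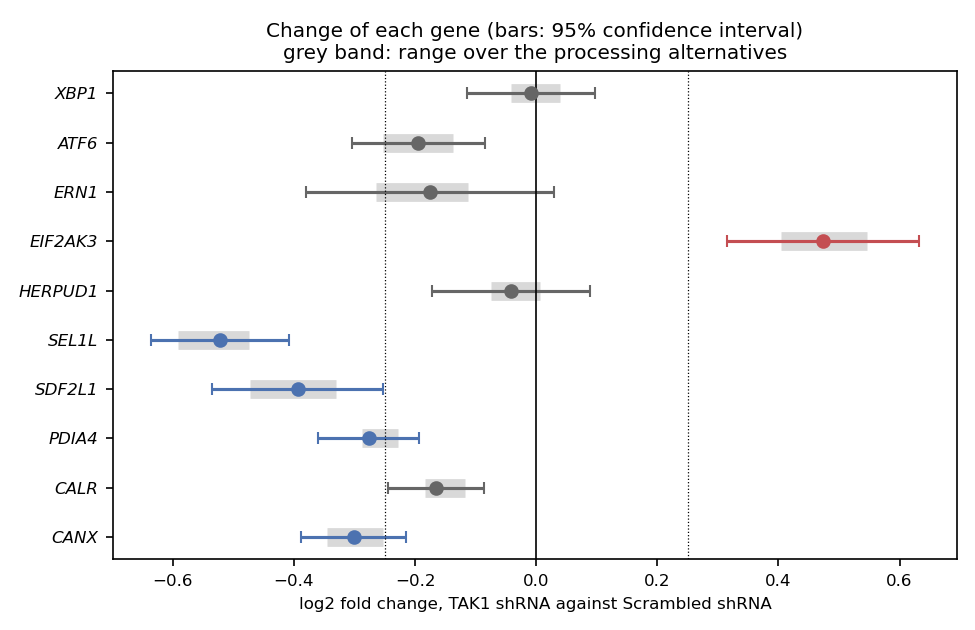
Log2 fold change of each of the 10 genes in TAK1 shRNA against Scrambled shRNA libraries (horizontal axis), with the 95% confidence interval of edgeR's quasi-likelihood fit as bars, the range over 16 processing alternatives as grey bands and the fold threshold of 0.25 as dotted lines. Genes called up are red and genes called down are blue. EIF2AK3 stands alone on the right at 0.47, SEL1L lies farthest left at -0.52, and the intervals of XBP1, ERN1 and HERPUD1 cross 0.

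All 4 folding factors were lower in each knockdown library than in each control library, and 43.9% of all genes tested also had groups that did not overlap. All 4 passed on the adjusted p, and 3 of them, all but CALR, also passed the fold threshold and were called. SDF2L1 (ENSG00000128228.5, chromosome 22, 21642302 to 21644299, plus strand), a lumenal partner of the chaperone BiP, was at 51.6, 53.2 and 51.0 CPM in the control and at 43.8, 35.9 and 39.0 CPM in the knockdown libraries. The knockdown values were lower and more widely spread. Means of 51.9 ± 1.13 and 39.6 ± 3.99 CPM (SD, n = 3) gave a log2 fold change of -0.39 (SE 0.069, adjusted p = 6.81e-05).

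PDIA4 (ENSG00000155660.11, chromosome 7, 149003062 to 149028662, minus strand) encodes ERp72, a protein disulfide isomerase. It was measured at 572, 567 and 578 CPM in the control and at 469, 476 and 473 CPM in the knockdown libraries. Both groups were tight around their means of 573 ± 5.53 and 473 ± 3.62 CPM (SD, n = 3). The log2 fold change was -0.28 (SE 0.041, adjusted p = 7.28e-06). Scaled by library size alone it was -0.23, under the fold threshold, with an adjusted p of 6.83e-05.

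Calnexin (CANX) and calreticulin (CALR) are lectin chaperones that bind newly made glycoproteins, calnexin in the membrane and calreticulin in the lumen. CANX (ENSG00000127022.16, chromosome 5, 179678628 to 179731641, plus strand) was at 1084, 1050.4 and 1104 CPM in the control and at 842, 869 and 917 CPM in the knockdown libraries. All knockdown values lay below the controls, and the log2 fold change was -0.30 (SE 0.042, adjusted p = 3.81e-06). CALR (ENSG00000179218.15, chromosome 19, 12938578 to 12944489, plus strand) was at 1359, 1341 and 1370 CPM in the control and at 1188, 1219 and 1221 CPM in the knockdown libraries. The groups were again apart, but the log2 fold change of -0.17 (SE 0.038, adjusted p = 0.00148) lay under the fold threshold. Within a library, the number of CANX counts per CALR count was 0.798, 0.783 and 0.806 in the control and 0.708, 0.713 and 0.751 in the knockdown libraries, so CANX was lower against CALR in each knockdown library, by a comparison chosen after the values were seen. Exons of CANX overlap those of the pseudogene HMGB3P22 and of CBY3, and exons of CALR overlap a transcript of the opposite strand, so these counts are less certain.

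Summed over SDF2L1, PDIA4, CALR and CANX, folding factor mRNA was at 3012 to 3103 CPM in control and 2542 to 2651 CPM in knockdown libraries, 15.1% lower in the mean. CALR and CANX make up most of this sum. The 3 sensors summed to 174 to 180 CPM in control and 156 to 176 CPM in knockdown libraries, with the rise of EIF2AK3 set against the lower ATF6.

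Levels were compared between genes per kilobase of the canonical GENCODE 44 transcript. In control cells CALR led with 714 ± 7.47 CPM per kilobase (SD, n = 3), followed by CANX at 220 ± 5.51, PDIA4 at 207 ± 2.00, SDF2L1 at 62.9 ± 1.37 and XBP1 at 56.3 ± 2.74. ATF6 at 18.4 ± 0.285, HERPUD1 at 15.3 ± 0.618 and SEL1L at 15.02 ± 0.459 CPM per kilobase followed, and EIF2AK3 at 5.16 ± 0.513 and ERN1 at 1.99 ± 0.222 came last. HERPUD1 and SEL1L were the neighbours whose libraries overlapped. In knockdown cells SDF2L1 at 47.9 ± 4.83 CPM per kilobase came after XBP1 at 55.9 ± 1.23, and the overlapping neighbours were CANX with PDIA4 and ATF6 with HERPUD1. SEL1L at 10.5 ± 0.753 CPM per kilobase was then apart from HERPUD1 at 14.9 ± 0.541, and EIF2AK3 at 7.17 ± 0.0926 stood above ERN1 at 1.76 ± 0.149. With the length of all annotated exons in place of the canonical transcript, in control cells PDIA4 came before CANX and SEL1L before ATF6 and HERPUD1, and in knockdown cells SDF2L1 at 37.3 stayed above XBP1 at 33.1 CPM per kilobase, so the order of close neighbours depends on the length used.

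**Figure D3:**
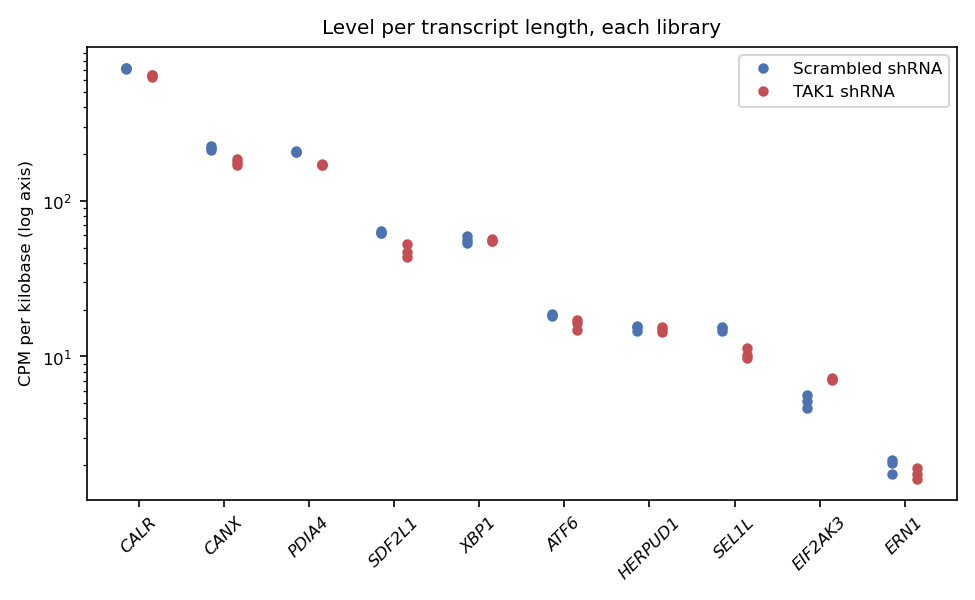
Expression per transcript length of the 10 genes in CPM per kilobase of the canonical transcript (vertical log axis), one point per library, Scrambled shRNA in blue and TAK1 shRNA in red, in the order of the control means. The levels run from 714 CPM per kilobase for CALR to 1.99 for ERN1 in control cells. By this length SDF2L1 came before XBP1 in control and after it in knockdown cells, and by the length of all exons it came before XBP1 in both.

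The wider ER network was examined with 10 other lists of 221 genes, of which 211 passed the filter. Of these, 34 were called down (16.1%) and 11 were called up (5.21%), against 11.3% and 11.8% of all genes tested, and the median log2 fold change was -0.042. The lists were written with earlier results of these data known, and no enrichment test was run.

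Of the lumenal chaperones, 8 of 19 tested genes were called down (42.1%) and 0 were called up. Scaled by library size alone, 5 were called down, and the order of the lists by share called down changed with the scaling and the fold threshold. HSPA5 encodes BiP, the HSP70 chaperone of the ER that also holds the sensors inactive. It fell from 1655 ± 27.1 to 1316 ± 21.4 CPM (SD, n = 3), for a log2 fold change of -0.33 (adjusted p = 2.21e-07). HSP90B1, which encodes the HSP90 chaperone GRP94, fell by 0.30 on the log2 scale, but by 0.25 and under the threshold without replicate 1 of the knockdown or scaled by library size alone. HYOU1, a nucleotide exchange factor for BiP, fell by 0.30, and HSPA13, an HSP70-like protein, fell by 0.73, the most in the list. MANF, DNAJB11, CRELD2 and DNAJC10 were the other genes called down, named after their values were seen. DNAJB9 (ERdj4), a cochaperone known as an XBP1 target, was at 28.3 ± 0.746 and 27.6 ± 2.96 CPM (SD, n = 3), with a log2 fold change of -0.033 and an adjusted p of 0.79.

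Among disulfide isomerases and oxidases, 4 of 20 genes were called down and 1 up. TXNDC5, a thioredoxin-domain isomerase, fell from 18.8 ± 0.307 to 9.51 ± 0.736 CPM (SD, n = 3), for a log2 fold change of -0.99 (adjusted p = 7.84e-09). TXNDC12 rose by 0.26, and this call was lost without replicate 1 or 3 of either group (0.19 to 0.26). In the glycoprotein folding cycle around calnexin and calreticulin, 1 of 21 genes was called down, the cargo receptor LMAN1 at -0.30, and 0 were called up, with 2 called down without replicate 3 of the knockdown and 1 called up without replicate 2 of the knockdown.

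The ERAD list held 7 genes called down and 0 called up of 34, with 1 called up without replicate 2 of the control or replicate 3 of the knockdown. UBE2J1, an ER-bound ubiquitin-conjugating enzyme, fell the most, from 107 ± 4.54 to 68.9 ± 1.06 CPM (SD, n = 3), for a log2 fold change of -0.63 (adjusted p = 7.88e-10). SYVN1, the gene of the ligase HRD1 that SEL1L serves, was at 56.8 ± 3.00 and 54.5 ± 3.85 CPM (SD, n = 3), for a log2 fold change of -0.059 (adjusted p = 0.526). SEL1L and the gene of its ligase were thus not called alike, and the difference between their changes was not tested.

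Translocation genes, which bring new proteins into the ER, had 8 of 24 called down (33.3%) and 1 called up. SSR2, a subunit of the translocon-associated TRAP complex, fell from 219 ± 11.1 to 116 ± 0.361 CPM (SD, n = 3), for a log2 fold change of -0.92 (adjusted p = 2.85e-13). SEC61A2, a paralog of the translocon channel gene SEC61A1, rose by 0.31 and lost the call without replicate 2 or 3 of the control or replicate 1 of the knockdown (0.25 to 0.27). By the distance between the profiles of the 6 libraries, each in log2 CPM minus its control mean, the genes most like SEL1L among the 211 were SPCS2, SEC11A and TRAM1, at distances of 0.10, 0.12 and 0.16. All 3 came from the translocation list, each with a log2 fold change of -0.51, near that of SEL1L. The genes most like EIF2AK3 were CALCOCO1, DDIT4 and REEP2, at 0.23, 0.28 and 0.33. Genes with a change of like size lie near each other by this distance, and shared regulation was not tested.

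**Figure D4:**
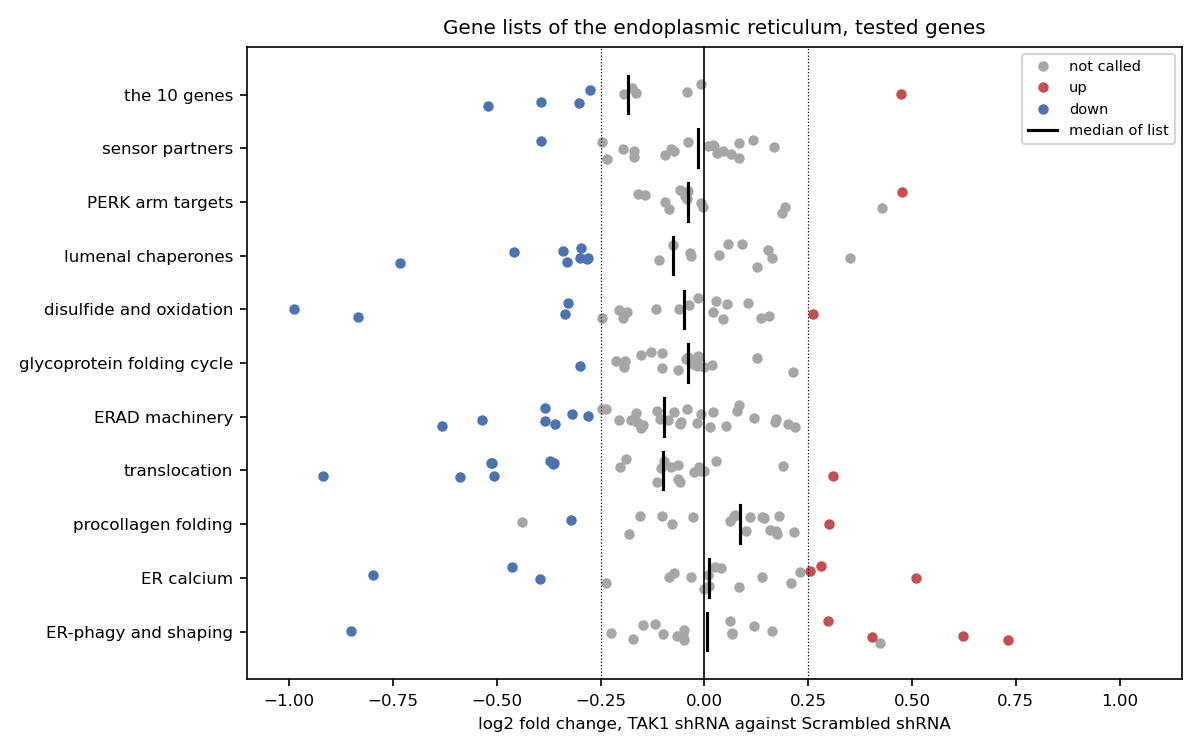
Log2 fold change in TAK1 shRNA against Scrambled shRNA libraries (horizontal axis) of each tested gene of the 10 genes and of the 10 other ER lists, one point per gene, red for called up, blue for called down and grey for not called, with the median of each list as a black bar. Lumenal chaperones and translocation genes hold 8 blue points each, and procollagen folding genes have the highest median, 0.086.

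Of the partners of the sensors, 1 of 20 was called down and 0 up, and 2 were called down without replicate 1 or 2 of the control and 3 without replicate 3 of the knockdown. EIF2S1, the gene of eIF2α and so of the substrate of PERK, fell from 144 ± 1.93 to 110 ± 5.09 CPM (SD, n = 3), for a log2 fold change of -0.39 (adjusted p = 7.5e-07), while EIF2AK3 itself rose. ATF6B, the paralog of ATF6, had a log2 fold change of 0.022 (adjusted p = 0.826). Of the 14 targets of the PERK and ATF4 arm, 1 was called up, DDIT4, an mTORC1 inhibitor, at 0.48, and 0 were called down, with 2 called up without replicate 1 of the control. ATF4, its transcription factor, was at 293 ± 8.39 and 275 ± 11.6 CPM (SD, n = 3), for a log2 fold change of -0.096 (adjusted p = 0.114). DDIT3, which encodes CHOP, was at 5.44 ± 0.514 and 5.31 ± 0.958 CPM (SD, n = 3), for a log2 fold change of -0.038 with a 95% confidence interval from -0.35 to 0.27 (adjusted p = 0.878).

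Procollagen folding genes had 1 of 20 called in each direction, the prolyl isomerases FKBP7 at 0.30 and FKBP14 at -0.32, and the call of FKBP7 was lost without replicate 1 of the control (0.24). ER calcium genes had 3 of 19 called in each direction, led by the calcium pump ATP2A3 at 0.51 and the calcium-binding reticulocalbin RCN2 at -0.80. ER-phagy and shaping genes had 4 of 20 called up and 1 down, led by REEP6 at 0.73 and REEP1 at -0.85, and REEP6 lost the call without replicate 1 of the knockdown (0.60, adjusted p = 0.0678).

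The promoter elements were set against the calls. In all, 33 tested genes had an ERSE or ERSE-II in a RefSeq promoter window, and 13 of them were called down (39.4%) and 3 up, with a median log2 fold change of -0.16. The 33 include 5 of the 10 genes, 2 of them called down, and 7 genes of the other ER lists, 5 of them called down. The share is therefore not independent of the calls already given. ERSE alone gave 9 of 18 called down and ERSE-II alone 4 of 15 (26.7%, median -0.055). All genes tested gave 11.3%, 11.8% and 0.018 for the same quantities. TGACGTGG was present for 128 tested genes, with 25 called down (19.5%), 19 called up and a median of -0.0028. Of these, 10 were genes of the other ER lists, with 5 called down, 0 called up and a median of -0.26. The ATF4 element was present for 73, with 9 called down (12.3%), 7 called up and a median of -0.014. ER genes make up a larger part of the 33 than of the 128, so the shares called down are not like for like between elements. A difference between elements apart from this was not tested. Among the 10 genes, those with either element were CANX and SDF2L1, which fell, and CALR, XBP1 and HERPUD1, which were not called. SEL1L and PDIA4, which also fell, and EIF2AK3, which rose, had no exact match to either sequence in their windows. Inexact matches were not sought. In the other ER lists 7 genes had either element, and CRELD2, ERO1B, HSP90B1, HSPA5 and HYOU1 were called down while NUCB1 and PDIA6 were not called.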

How the data were processed

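RNA-seq was performed on 3 Scrambled shRNA and 3 TAK1 shRNA samples of RD cells, grouped by their titles. The authors deposited raw counts per gene symbol, without normalization, made from reads called with CASAVA, cleaned of adaptors and poor bases and aligned to GRCh38 with STAR. The counting program, the annotation and the use of strand are not given in the sources used here. Total counts were 28839898 to 34469323 per library, so the spread between replicates (biological coefficient of variation 5.67%) exceeds counting error except in low-count genes. Replicates of a group differed by more than sampling noise (chi-square per degree of freedom 2.87 to 8.67).

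Genes were tested in R 4.3.3 with edgeR 4.0.16 (default expression filter, trimmed mean of M-values, quasi-likelihood test, Benjamini-Hochberg adjustment over 15935 rows). Standard errors were derived from the F statistic as |log2 fold change|/√F. DESeq2 1.42.0, limma 3.58.1 (voom), other scalings, filters and thresholds, a replicate block and leaving out each library were alternatives. The fits were also run on simulated counts with the same biological coefficient of variation for every gene. No result here rests on that run. Named genes are MAP3K7, the 10 genes, HSPA5, HSP90B1, ATF6B, SYVN1, DNAJB9, HYOU1, ATF4, DDIT3, and from each other list the highest and lowest called log2 fold change whose mean is 1 CPM or more and whose groups do not overlap. The 10 genes and all lists were chosen with earlier results of these data known. Gene identifiers, positions and lengths came from GENCODE 44 and promoter sequences from RefSeq (GRCh38.p14). Protein sequences were not used here.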

Additional observations from a re-analysis of the deposited data

How the results depend on the processing

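SEL1L kept its call under all 16 alternatives (log2 fold change from -0.59 to -0.47). EIF2AK3 (0.40 to 0.55) and SDF2L1 (-0.47 to -0.33) lost theirs only at a fold threshold of 0.5, as did CANX (-0.35 to -0.25), and PDIA4 also when scaled by library size alone (-0.23). At a fold threshold of 0.5, 0 of the 10 genes were called up, 1 was called down, and 735 genes were called up and 680 down in the whole table. With no fold threshold 2734 genes were called down in the whole table and 6 of the 10, ATF6 and CALR among them. At 0.5, 1 lumenal chaperone, 2 ERAD and 5 translocation genes were called down. Sensor partners called down numbered 2 with DESeq2, with no filter, with size factors by relative log expression, and without replicate 1 or 2 of the control. They numbered 3 without replicate 3 of the knockdown, and 5 with no fold threshold, where ERAD had 13 and disulfide genes had 9. With 1 library left out, 1 of the 10 was called up and 4 to 5 were called down, and 1582 to 1810 genes were called up and 1675 to 1931 down in the whole table. The direction reversed for XBP1 with upper-quartile factors (0.0083), library size alone (0.039), and without replicate 1 of the control (0.028) or replicate 2 of the knockdown (0.0030). It also reversed with library size alone for HERPUD1 (0.0064), DNAJB9 (0.015) and DDIT3 (0.010), without replicate 1 of the knockdown for DNAJB9 (0.023) and ATF6B (-0.040), and for DDIT3 without replicate 2 of the control (0.038) or replicate 3 of the knockdown (0.090). None of these genes was called in any of the fits. Over the fits without 1 library the log2 fold change ran from -0.041 to 0.028 for XBP1, -0.040 to 0.079 for ATF6B, -0.13 to 0.023 for DNAJB9 and -0.14 to 0.090 for DDIT3. The cause was not tested. Samples with the same number deviated together with correlations of 0.13, 0.071 and 0.048, and not every sample correlated best with its own number, so the numbers were not taken to pair the samples. With the replicate block 1 of the 10 genes was called up and 4 down, as without it, and 1942 genes were called up and 1848 down in the whole table, and the block ended no call among the genes named. Depth limits DDIT3 and REEP6 most among the named genes.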
